A study of Mus musculus with 26 samples.

Results

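Genes for neuronal calcium-binding proteins (10 in number) were followed in 26 single amacrine cells of the developing mouse retina, each hybridised alone to an Affymetrix mouse expression array. They are Calb1, Calb2, Pvalb, Cabp1, Necab1, Necab2, Hpca, Hpcal1, Vsnl1 and Ncald, 10 of the 18193 genes that had a probe set of their own. The members were fixed by name, as genes of EF-hand proteins used as neuronal calcium buffers or sensors, and for each the probe set whose log2 signal averaged highest over the cells was used. Detection meant a signal of 1000 or more. Every array had a trimmed mean signal of 500 in the deposited values.

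Cells came from retinas electroporated with a fluorescent reporter, pSynapsin::GFP or pNdrg4::GFP, and a fluorescent cell was picked by hand after dissociation. The series text places electroporation at P0, in vivo or ex vivo, although 1 cell is labelled E19. The groups were E19 pSynapsin (1 cell, retina cultured for 4 days), P4 pNdrg4 (2 cells, 4 days), P5 pSynapsin (4 cells, 5 days), P5 pNdrg4 (5 cells, 5 days), P5 pNdrg4 with no culture stated (10 cells), P8 pSynapsin (2 cells, 8 days) and P8 pNdrg4 (2 cells, 8 days). Neither a strain nor an animal, retina or culture is named, so each group counts as 1 sample, no test was made, and SDs describe cells only. Each reporter marks the cells in which its promoter fragment was active, which need not be the same amacrine types at different ages. Cell names such as A1 repeat between groups and are given with their group. Pax6, a transcription factor of amacrine cells, was detected in all 26 cells, Slc32a1, the vesicular transporter of inhibitory transmitters, in 22 and Tfap2b in 20. A cell had between 1909 and 4180 detected genes (median 3253.5), and rod photoreceptor genes were present in many cells. The 3 starburst markers tested (Chat, Slc18a3 and Slc5a7) were detected in 0 cells.

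EF-hand proteins bind calcium ions in a helix-loop-helix fold. Buffers such as calbindin, calretinin and parvalbumin shape the size and time course of calcium transients, while sensors of the CaBP and visinin-like families change conformation on binding calcium and act on channels, receptors or enzymes. Retinal anatomists have long used antibodies against these proteins to tell amacrine cell types apart, calretinin and parvalbumin for the AII cell in rabbit and rat among them.

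Sequence upstream of the transcripts is shown for the member detected in the most cells, Cabp1, which has 2 annotated starts, and for Pvalb, which was detected in none. RefSeq windows (build GRCm38.p6) of 250 bases before to 50 bases after an annotated start were held for 6 of the 10 genes, 11 windows in all, and for none of Calb1, Calb2, Necab1 and Ncald. Each window below is printed 5′ to 3′ on the strand of its gene, the minus strand in each case. Capitals mark matches on either strand to an E-box (CANNTG) or to the AP-2 palindrome (GCCNNNGGC), the letters bound by many bHLH factors and by the Tfap2 family. No match overlapped another.
Cabp1 start 1, chr5:115194332-115194631: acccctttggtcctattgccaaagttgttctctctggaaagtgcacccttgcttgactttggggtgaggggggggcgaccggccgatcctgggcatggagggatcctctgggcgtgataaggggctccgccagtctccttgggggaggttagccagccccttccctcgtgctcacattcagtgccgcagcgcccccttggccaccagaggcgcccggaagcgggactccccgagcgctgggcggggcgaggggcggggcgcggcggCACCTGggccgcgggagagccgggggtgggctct
Cabp1 start 2, chr5:115186072-115186371: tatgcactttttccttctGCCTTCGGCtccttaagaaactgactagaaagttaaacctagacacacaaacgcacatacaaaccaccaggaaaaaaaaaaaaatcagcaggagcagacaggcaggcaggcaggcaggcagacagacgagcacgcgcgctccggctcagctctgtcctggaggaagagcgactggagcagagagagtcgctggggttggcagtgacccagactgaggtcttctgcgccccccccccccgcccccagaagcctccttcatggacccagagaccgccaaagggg
Pvalb start 1, chr15:78206351-78206650: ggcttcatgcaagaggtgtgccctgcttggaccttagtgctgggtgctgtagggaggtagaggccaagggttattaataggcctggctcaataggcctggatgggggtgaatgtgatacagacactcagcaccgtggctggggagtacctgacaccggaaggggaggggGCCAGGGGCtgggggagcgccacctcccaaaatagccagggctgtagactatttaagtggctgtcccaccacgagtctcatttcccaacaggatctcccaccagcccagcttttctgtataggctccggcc
The first Cabp1 window held 1 E-box and 0 AP-2 matches, and the second 0 and 1. The first Pvalb window held 0 E-boxes and 1 AP-2 match, and the window at the second start of Pvalb, not printed, 2 E-boxes and 1 AP-2 match. Among all 32851 windows in the table, 72.3% held an E-box and 16.6% an AP-2 match. Base composition was 69.3% and 57.0% G and C in the Cabp1 windows and 58.3% in the printed Pvalb window.

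Detection differed widely between the members. Cabp1 was detected in 13 of 26 cells (50%, exact 95% interval 29.9% to 70.1%), Necab1 in 10 (38.5%, 20.2% to 59.4%), Calb2 in 9 (34.6%, 17.2% to 55.7%), Hpca, Hpcal1 and Vsnl1 in 6 each (23.1%, 8.97% to 43.6%), Necab2 in 4 (15.4%, 4.36% to 34.9%) and Ncald in 3 (11.5%, 2.45% to 30.2%). Calb1 and Pvalb were detected in 0 cells, which allows a share of up to 13.2% of such cells. Of all genes, 44.1% were detected in 0 cells and 55.9% in at least 1. These Clopper-Pearson intervals cover counting error only. The median member was detected in 6 cells, against 1 cell for the median of all genes and 7 cells for the median of the genes detected in at least 2 cells. No member was detected in more than 13 of the 26 cells. Their median lay close to that of the genes detected in at least 2 cells, so detection in a subset of cells was not particular to the members. Of all 18193 genes, 124 were detected in every cell.

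**Figure D1:**
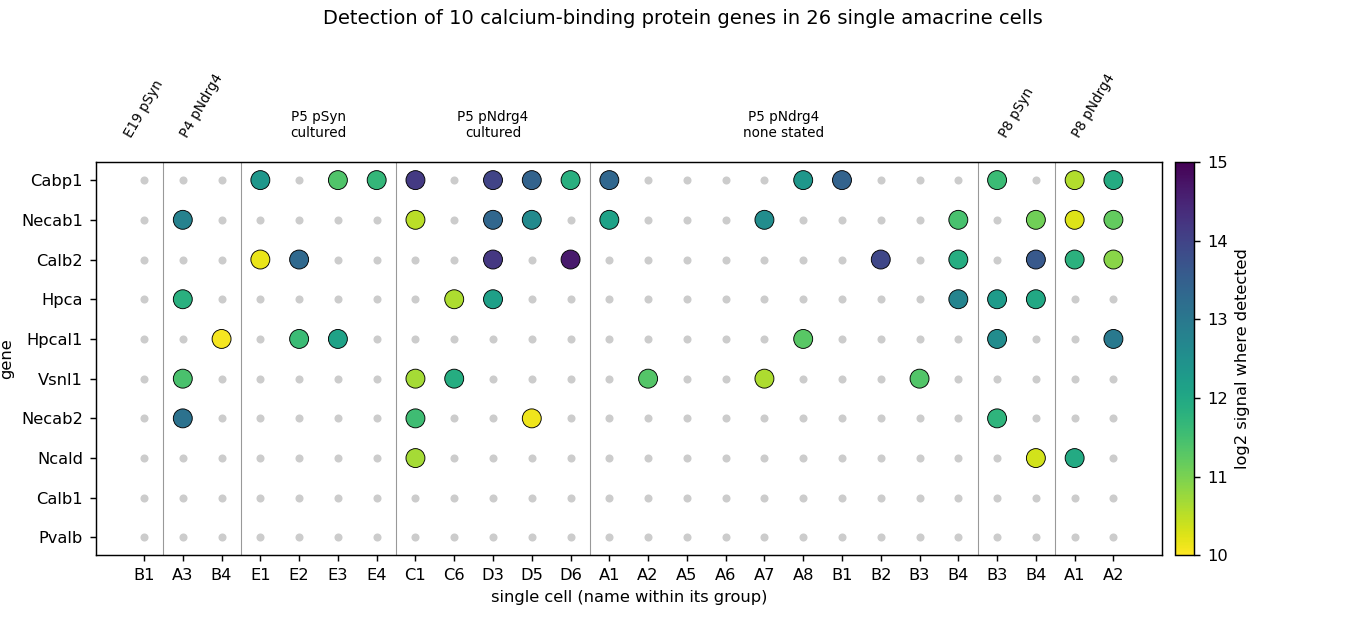
Each row is a gene and each column 1 of the 26 cells, ordered by group; a coloured circle marks detection (signal of at least 1000) and its colour the log2 signal, a grey dot marks no detection. Circles are scattered over the groups, with 4 in each of the 4 P8 cells and none in the rows of Calb1 and Pvalb.

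The map of detection by cell shows how the genes combined. A cell had a median of 2 members detected. In 3 cells none was detected (E19 pSynapsin B1, and A5 and A6 of P5 pNdrg4 with no culture stated), 6 cells had 1, 8 had 2, 2 had 3, 6 had 4, and 1 cell, cultured P5 pNdrg4 C1, had 5. By group the median was 0 at E19, 2.5 at P4, 2 in cultured P5 pSynapsin cells (1 to 2), 3 in cultured P5 pNdrg4 cells (2 to 5), 1 in P5 pNdrg4 cells with no culture stated (0 to 3), and 4 in each of the 4 P8 cells. The number of all genes detected moved with it: the 7 cells with 4 or 5 members had 3251 to 4180 genes detected (median 3467), and the 9 cells with 0 or 1 member had 1909 to 3291 (median 2306). Over the 26 cells the 2 numbers correlated at r = 0.72 (Spearman's rho 0.70), a description of cells that share amplification chemistry and arrays. The part of amplification depth in the counts of members was not tested.

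Among the buffers, calbindin (Calb1), which labels horizontal cells and some amacrine cells in mouse retina, stayed below 146 in every cell on the probe set used, and the highest signal of any of its 4 probe sets was 194. Of 3 other horizontal cell genes, Lhx1 and Onecut1 were detected in 0 cells and Onecut2 in 4. Parvalbumin (Pvalb), a fast buffer of interneurons, had 1 probe set, with a median signal of 50.8 and a highest signal of 230, in P5 pNdrg4 cell B3 with no culture stated.

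Calretinin (Calb2), a buffer of AII and other amacrine cells, had the highest signal of any member and a wide split between cells. It reached 1146 to 25859 in the 9 cells where it was detected (median 10226), and no other cell was above 425. In cultured P5 pSynapsin cells the signal was 1146 in E1 and 10226 in E2, with E3 and E4 below 200. Cultured P5 pNdrg4 cells had 18601 in D3 and 25859 in D6, and the other 3 had at most 107. Among the 10 P5 pNdrg4 cells without a stated culture, B2 had 15580 and B4 had 3801, with a lowest of 16.2 and a median of 35.6. At P8 the pSynapsin cell B4 had 12680.3 and B3 had 49.7, and both pNdrg4 cells had the gene, at 3587 in A1 and 1902 in A2. High and absent cells were therefore found side by side in every group of more than 2 cells.

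Cabp1 encodes CaBP1 and caldendrin, calmodulin-like sensors that act on L-type calcium channels and inositol trisphosphate receptors. Its signal in the cells with detection was 1517 to 18066 (median 5209.9), and the highest signal without detection was 562. Cultured P5 pSynapsin cells had 5209.9 (E1), 562 (E2), 2670.3 (E3) and 3325 (E4). Cultured P5 pNdrg4 cells had 18066 (C1), 412 (C6), 16210.1 (D3), 11036 (D5) and 3686 (D6). Among the 10 cells with no culture stated, B1 had 11063, A1 had 10434 and A8 had 5222, the lowest was 15.4 and the median 85.1. At P8 the pSynapsin cells had 3082 (B3) and 30.77 (B4) and the pNdrg4 cells 1517 (A1) and 3963 (A2), while the P4 cells (74.3 and 40.4) and the E19 cell (117) were low. On the log2 scale with signals raised to 200, the group means ran from 12.42 ± 2.27 in cultured P5 pNdrg4 cells (SD, n = 5 cells) through 11.26 ± 0.98 at P8 pNdrg4 (n = 2), 11.14 ± 1.40 at P5 pSynapsin (n = 4), 9.62 ± 2.79 at P8 pSynapsin (n = 2) and 9.33 ± 2.59 with no culture stated (n = 10) to the floor of 7.64 at P4 and E19. Neighbours in that order differed by less than the SD of at least 1 of the groups.

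**Figure D2:**
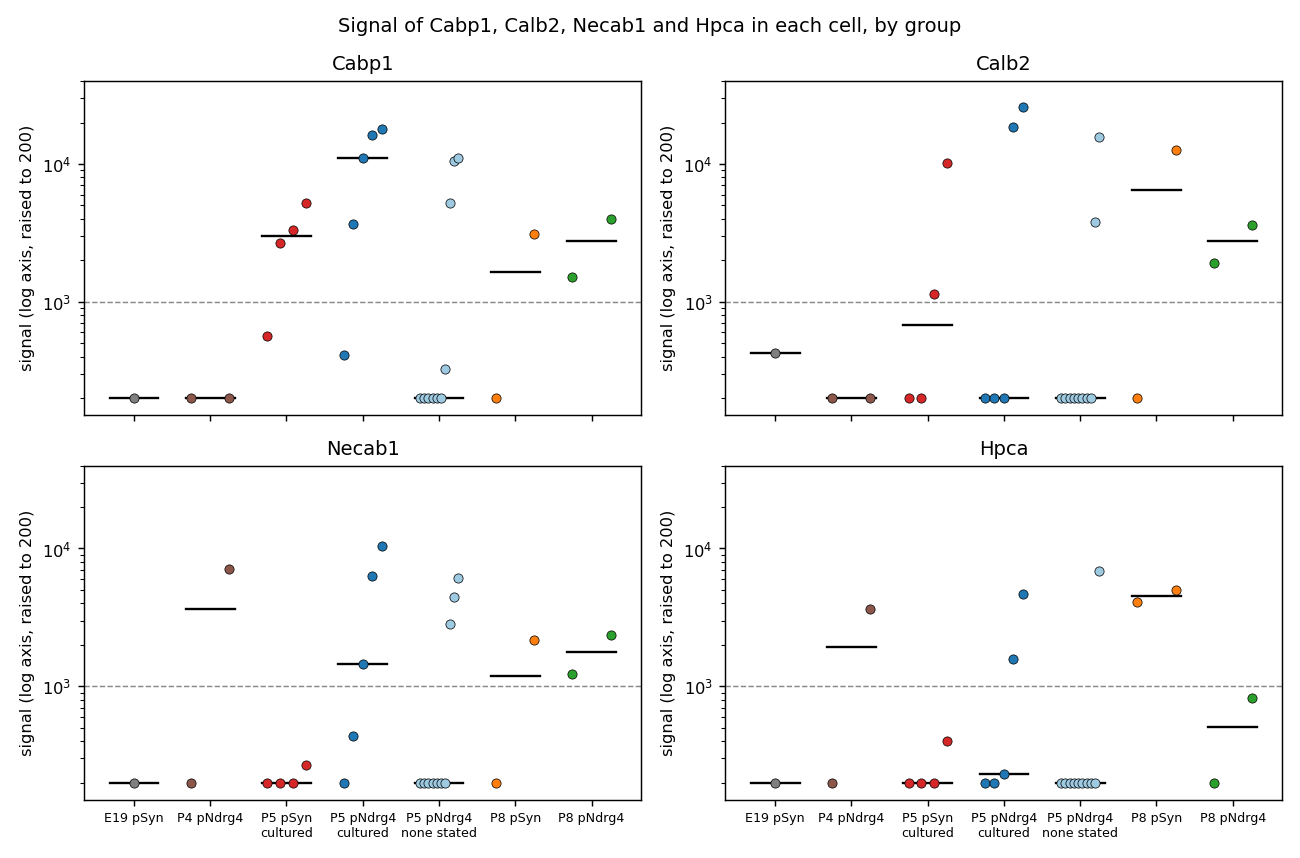
Signal (log axis, values under 200 drawn at 200) of Cabp1, Calb2, Necab1 and Hpca in each of the 26 cells, with a short line at each group's median and a dashed line at the detection signal of 1000. For Cabp1, 4 of 5 cultured P5 pNdrg4 cells lie above the line, against 3 of 10 with no culture stated; for Hpca both P8 pSynapsin cells lie above it.

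The plot of 4 members by group shows the same split for the NECAB genes. Their products are neuronal EF-hand proteins that also carry a monooxygenase-like domain, and NECAB2 binds adenosine and metabotropic glutamate receptors. Necab1 was detected at 1225 to 10401 in 10 cells. All 4 cultured P5 pSynapsin cells were low, with a highest signal of 266 in E2. Cultured P5 pNdrg4 cells had 1459 (C1), 432 (C6), 10401 (D3), 6335 (D5) and 109.9 (D6), and the 10 cells with no culture stated ranged from 2.36 to 6076 with a median of 73.97. Among these 10, A7 (6076), A1 (4473) and B4 (2813) stood above the other 7. The P8 pSynapsin cells had 4.96 (B3) and 2175 (B4), the P8 pNdrg4 cells 1225 (A1) and 2339 (A2), and the P4 cells 7087 (A3) and 81.8 (B4). Necab2 was detected in 4 cells, P4 A3 (8847), P8 pSynapsin B3 (3449) and the cultured P5 pNdrg4 cells C1 (2995) and D5 (1112). Of these, 3 (P4 A3, C1 and D5) had Necab1 as well.

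Hippocalcin (Hpca) is a myristoylated sensor that moves to membranes when calcium binds. It was detected in both P8 pSynapsin cells, at 4971 in B3 and 4121 in B4, but reached only 820 in A1 and 5.72 in A2 of the P8 pNdrg4 cells. The cultured P5 pSynapsin cells had at most 399. The remaining cells with detection were P4 A3 (3655), the cultured P5 pNdrg4 cells C6 (1573) and D3 (4649.8), and B4 with no culture stated (6907). Its relative Hpcal1 was detected in other cells: P5 pSynapsin E2 (3079.5) and E3 (4459.5), P8 pSynapsin B3 (6191), P8 pNdrg4 A2 (8035), P4 B4 (1071) and A8 with no culture stated (2509). One cell, P8 pSynapsin B3, had both. Hpcal1 had no wide gap at the detection signal, since A7 with no culture stated lay just under it at 994 and P4 B4 just above at 1071.

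Visinin-like 1 (Vsnl1), a sensor of the same family, was detected only in pNdrg4 cells of P4 and P5: P4 A3 (2784), the cultured P5 cells C1 (1635) and C6 (3813), and A2 (2589), A7 (1574) and B3 (2639) with no culture stated. In the 7 pSynapsin cells of all ages and in both P8 pNdrg4 cells it was not detected, and the highest of these signals was 350.1, in P8 pNdrg4 A1. Neurocalcin delta (Ncald) was detected in cultured P5 pNdrg4 C1 (1628), P8 pSynapsin B4 (1293) and P8 pNdrg4 A1 (4008). P4 A3 was just below at 946.

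Several of these calls rest on 1 probe set. The second probe set of Necab1 reached at most 566, and that of Hpca at most 976, so neither was detected in any cell there. A second Vsnl1 probe set was detected in 1 cell, P4 B4 (1222), where the one used read 109.5. For Ncald the second probe set was detected only in P8 pNdrg4 A1 (3256), a cell that the first had as well. Calb2, Cabp1, Necab2, Hpcal1 and Pvalb each had 1 probe set.

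The first comparison asked how cells of cultured retinas differed from cells with no culture stated, among P5 pNdrg4 cells. Cabp1 was higher in cultured cells, with a mean log2 signal of 12.42 ± 2.27 (SD, n = 5 cells) against 9.33 ± 2.59 with no culture stated (n = 10), a difference of 3.08. It was detected in 4 of 5 cultured cells and in 3 of 10 of the others, and the ranges overlapped. This was the only 1 of the 8 members detected in at least 2 cells that differed by at least 4-fold (2 on the log2 scale). Of all 8570 genes detected in at least 2 cells, 8.84% did so in either direction. The other differences were 1.66 for Calb2, 1.61 for Necab1, 1.37 for Necab2, 1.03 for Hpca, 0.63 for Vsnl1, 0.56 for Ncald and -0.73 for Hpcal1. Median difference was 1.198 over the 8 members (0.83 without D3, 0.67 with group medians). It was 0.31 over all genes, of which 60.6% were higher in cultured cells.

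Single cells carried much of this. Without D3 the difference of Calb2 was 0.70, of Necab1 0.92 and of Hpca 0.28; without D6 that of Calb2 was 0.58, without C6 that of Hpca 0.67, and without C1 that of Necab2 0.77. The smaller differences came down to 1 cell: that of Vsnl1 was 0.01 without C6, and that of Ncald -0.02 without C1. Without A8 the difference of Hpcal1 was -0.42. Between cultured cells and cells with no culture stated no member was free of overlap, against 0.338% of all genes. Cultured cells had more genes detected (3049 to 3925) than the others (1909 to 3513). Müller glia genes (7 of 8 detected in some cell) also moved with culture, with a summed signal of 596 to 20265 in cultured cells and 5204 to 62874 with no culture stated. They were not alone in this. Progenitor genes summed to 152 to 783 in cultured cells and 319 to 42532 with no culture stated, and rod genes to 981 to 5948 and 339 to 61371. The ranges overlapped for each of these lists. The part of such genes in the differences of the members was not tested.

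**Figure D3:**
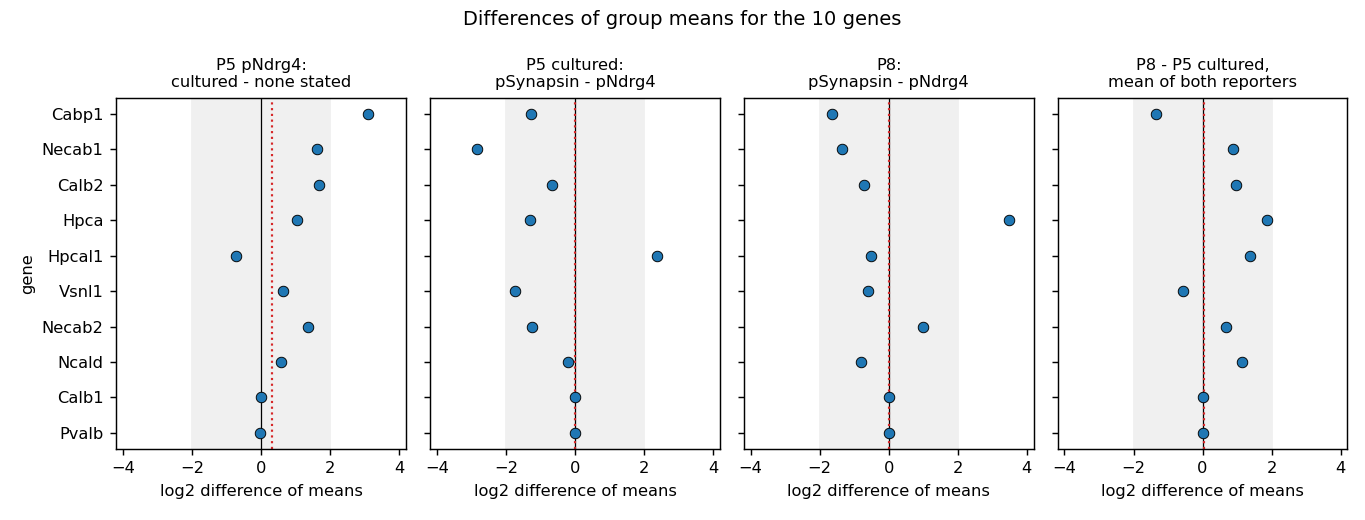
Log2 difference of group means for each of the 10 genes (points) in 4 comparisons, with the span under 4-fold shaded and the median of all 8570 genes as a red dotted line. Outside the shaded span lie Cabp1 for culture (3.08), Necab1 (-2.83) and Hpcal1 (2.39) for reporter at P5, and Hpca (3.48) for reporter at P8.

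In the plot of differences the reporter comparison among cultured P5 cells had points on both sides. Necab1 was lower in pSynapsin cells, at 7.75 ± 0.21 (SD, n = 4 cells) against 10.58 ± 2.44 in pNdrg4 cells (n = 5), a difference of -2.83. Hpcal1 was higher in pSynapsin cells, at 10.19 ± 2.07 against 7.80 ± 0.35 in pNdrg4 cells, a difference of 2.39. Both genes overlapped between the reporters, since pNdrg4 D6 (109.9) read below pSynapsin E2 (266) for Necab1, and pSynapsin E1 (69.4) was under 200 for Hpcal1, as 4 of the 5 pNdrg4 cells were. These were the 2 of 8 members past 4-fold, where 10.3% of all genes lay.

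Vsnl1 differed by -1.75, Hpca by -1.29, Cabp1 by -1.28, Necab2 by -1.26, Calb2 by -0.66 and Ncald by -0.20, all with the lower mean in pSynapsin cells. Vsnl1, Hpca and Necab2 were each detected in 0 of 4 pSynapsin cells and in 2 of 5 pNdrg4 cells. The value for Cabp1 was -2.21 without C6, -0.61 without E2 and -0.85 without C1; that for Vsnl1 was -1.12 without C6, for Hpca -0.54 without D3 and for Necab2 -0.66 without C1. Calb2 had no settled direction: it was at 0.29 without D3, 0.41 without D6, 0.02 without E3 or E4, -1.34 without C1, C6 or D5, -1.87 without E2 and 1.26 with group medians. Ncald turned to 0.38 without C1 and was at -0.70 without E2. Without E2 or E3 the difference of Hpcal1 was 1.92 or 1.74, under the 4-fold limit, and Necab1 alone remained past it. The median was -1.27 over the 8 members (-0.71 without D3) and 0 over all genes. No member was free of overlap, against 1.55% of all genes. The cultured P5 pNdrg4 cells are also in the culture comparison, so differences in the 2 comparisons are not independent. Rod genes moved with the reporter (8 of 9 measured were detected in some cell), with a summed signal of 7509 to 62864 in pSynapsin cells and 981 to 5948 in pNdrg4 cells, and their part in these differences was not tested.

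At P8, with 2 cells per reporter, Hpca was higher in pSynapsin cells, at 12.14 ± 0.19 against 8.66 ± 1.44 in pNdrg4 cells (SD, n = 2 cells each), a difference of 3.48. It was the 1 member of 8 past 4-fold, against 21.0% of all genes. Hpca and Vsnl1 did not overlap between the reporters, and neither did 21.3% of all genes. Vsnl1 differed by -0.60, between values near or below the floor. Cabp1 differed by -1.64 and Necab1 by -1.36, but each turned with 1 cell: Cabp1 was at 0.33 without pSynapsin B4 and -3.62 without pSynapsin B3, and Necab1 at -3.08 without B4 and 0.36 without B3. Without pNdrg4 A2 they were at -0.95 and -0.89. Necab2 was at 0.99, Ncald at -0.82, Calb2 at -0.71 and Hpcal1 at -0.53, each smaller than the SD in at least 1 of the groups. These 4 turned with 1 cell as well. Without pSynapsin B4, Calb2 was at -3.71, Hpcal1 at 1.95, Necab2 at 3.04 and Ncald at -2.16. Without pSynapsin B3 they were at 2.28, -3.01, -1.06 and 0.53. Without pNdrg4 A1 the differences of Calb2, Hpcal1, Necab2 and Ncald were -0.26, -2.85, -0.07 and 1.35, and without pNdrg4 A2 -1.17, 1.79, 2.05 and -2.98. The 2 pSynapsin cells differed from each other in the detection of 6 members and shared only Hpca.

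Age was compared in cultured cells as P8 minus P5 within each reporter, then averaged. No member passed 4-fold on average, against 5.48% of all genes. Hpca was widest at 1.86, made up of 4.25 in pSynapsin cells, where both P8 cells (4971 and 4121) lay above all 4 P5 cells (at most 399), and -0.52 in pNdrg4 cells. No other member was free of overlap in pSynapsin cells, against 7.77% of all genes, and none was in pNdrg4 cells, against 6.52%. Hpcal1 averaged 1.39 (-0.07 in pSynapsin and 2.85 in pNdrg4 cells), Ncald 1.15 (0.85 and 1.46), Calb2 0.97 (0.94 and 0.997), Necab1 0.88 (1.62 and 0.15) and Necab2 0.68 (1.81 and -0.44). Cabp1 averaged -1.34 (-1.52 and -1.16) and Vsnl1 -0.57 (0 and -1.14).

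Most of these averages leaned on the 4 P8 cells. Hpcal1 was at 2.63 without pSynapsin B4, 2.55 without pNdrg4 A1, 0.15 without pSynapsin B3 and 0.23 without pNdrg4 A2. Ncald was at 0.07 without pNdrg4 A1, 0.48 without pSynapsin B4, 1.83 without pSynapsin B3 and 2.23 without pNdrg4 A2, and Cabp1 was at -0.35 without pSynapsin B4 and -2.33 without pSynapsin B3. Calb2 turned to -0.53 without pSynapsin B4 and was at 2.47 without B3, Necab1 was at 0.02 and 1.74, and Necab2 at 1.71 and -0.34. Necab2 was also at 1.22 without pNdrg4 A1 and 0.15 without pNdrg4 A2. Median difference was 0.93 over the 8 members and 0.05 over all genes, and the members' median fell to 0.25 without pSynapsin B4 and 0.44 without pNdrg4 A2. Age and days in culture (5 and 8) cannot be told apart here.

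Glycinergic and GABAergic cells are the main classes of amacrine cells. Cells were sorted here by the glycine transporter gene Slc6a9 and the GABA synthesis gene Gad1. Gad2, the other GABA synthesis gene, was detected in 14 cells and was not used for sorting. Slc6a9-only cells with Gad2 were cultured P5 pNdrg4 C1, D3 and D5, B4 with no culture stated, P5 pSynapsin E4, P8 pNdrg4 A1 and P8 pSynapsin B3. The sorting therefore does not set glycinergic against GABAergic cells. Slc6a9 without Gad1 was detected in 13 cells, Gad1 without Slc6a9 in 10, both in 1 and neither in 2. Cabp1 was detected in 10 of the 13 Slc6a9-only cells and 2 of the 10 Gad1-only cells, a gap of 56.9 percentage points. This was the only member with a gap of at least 50 points, a limit chosen after the values were seen, and 2.57% of all genes had one in either direction. Calb2 was detected in 7 and 1 cells, Necab1 in 7 and 3, Hpca in 4 and 2, Hpcal1 in 4 and 2, Necab2 in 3 and 1, and Ncald in 3 and 0. Vsnl1 ran the other way, with 1 Slc6a9-only and 4 Gad1-only cells. Over all 8570 genes tested the median gap was 10.8 points toward Slc6a9-only cells. Hpca and Hpcal1 lay at that value and Necab2 near it, at 13.1 points. Calb2 was at 43.8 points, Necab1 at 23.8, Ncald at 23.1 and Vsnl1 at -32.3. With Gad2 the picture for Cabp1 differed: it was detected in 8 of the 14 Gad2 cells (r of log2 signals 0.17). Among the 11 Gad1 cells it was detected in 2 (r = -0.46).

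**Figure D4:**
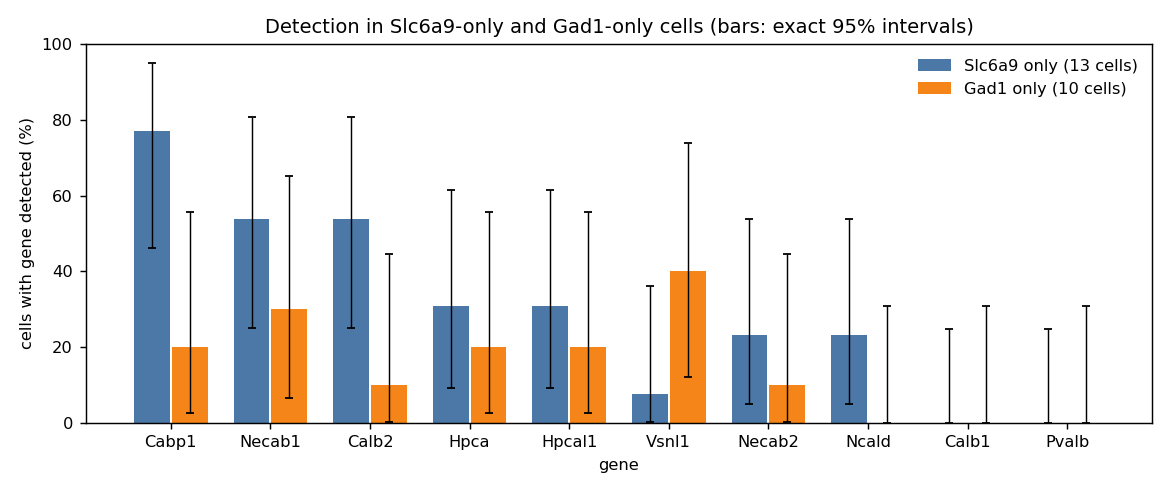
Share of cells (%) in which each gene was detected, among 13 cells with Slc6a9 and no Gad1 and 10 cells with Gad1 and no Slc6a9; bars start at 0 and error bars are exact 95% intervals for counting error. The gap is widest for Cabp1 (10 of 13 against 2 of 10), and Vsnl1 is the 1 member with more Gad1-only cells (4 of 10 against 1 of 13).

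The plot of shares by transmitter gene cannot be read apart from the groups. All 8 P5 pSynapsin and P8 cells were Slc6a9-only, and the E19 and P4 cells were Gad1-only. Of Slc6a9-only cells 11 of 13 came from cultured retinas, and of Gad1-only cells 4 of 10, with a median of 3467 and 2466.5 genes detected. Within the 10 P5 pNdrg4 cells lacking a stated culture, Cabp1 was detected in 1 of 2 Slc6a9-only and 2 of 6 Gad1-only cells. Within the 5 cultured cells Cabp1 and Necab1 were each detected in all 3 Slc6a9-only cells and not in the Gad1-only cell. Class, culture and reporter cannot be told apart by these counts.

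Calb2 was detected in all 5 cells with Slc6a5, the neuronal glycine transporter (cultured P5 pNdrg4 D3 and D6, P8 pNdrg4 A1 and A2, and P8 pSynapsin B4), and in 4 of the 21 cells without it. Of genes used to mark AII cells, Dab1 was detected in 6 of the 9 Calb2 cells and 7 of the other 17, and Gjd2, the gap junction protein of AII cells, in 3 of 9 and 2 of 17. Nfia, a transcription factor of AII cells, was detected in 3 of 9 and 3 of 17. Dab1 was detected in 10 of the 13 Cabp1 cells and in 3 of the other 13. Gjd2 and Nfia did not go with Cabp1: Gjd2 was detected in 2 of 13 and 3 of 13, and Nfia in 2 and 4. Prox1, a further AII gene, was detected in 2 cells, which both had Calb2 and Cabp1. The correlation of log2 signals over the 26 cells was 0.56 for Cabp1 and Dab1 and 0.21 for Calb2 and Dab1. These are descriptions over cells that share groups and arrays.

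Members were at most loosely correlated with each other. The highest correlation of log2 signals between members that were detected was 0.44, between Necab1 and Hpca, with 4 cells having both. Cabp1 and Calb2 were both detected in 5 cells, close to unrelated at r = -0.01. Cabp1 and Necab1 shared 6 cells (r = 0.21), and all 3 Ncald cells also had Necab1. Calb2 shared no cell with Vsnl1 or Necab2, and Hpcal1 none with Vsnl1 or Ncald. Cabp1 and Vsnl1 shared 1 cell, cultured P5 pNdrg4 C1. Correlations and shared cells of other pairs of genes are not given here, so these values cannot be called particular to the members.

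Genes with the most similar pattern over the 26 cells were ranked among 6675 genes detected in at least 4 cells. For Calb2 they were Slc6a5 (r = 0.71), Kbtbd11 (0.71) and Sdha (0.68). For Cabp1 they were Slc30a3 (0.69), Ier5 (0.66) and Arhgap21 (0.65), and for Necab1 Vps13b (0.80), Gpr173 (0.74) and Nwd2 (0.63). Hpca was closest to Lpin1 (0.82), Nkiras1 (0.78) and Hcfc2 (0.77), Hpcal1 to Gcg (0.72), Rexo4 (0.69) and Arhgef4 (0.67), Vsnl1 to Tdrd9 (0.79), Zfp467 (0.75) and Cdc42ep4 (0.72), and Necab2 to Them4 (0.80), 9330151L19Rik (0.78) and Ptpmt1 (0.76). Genes detected in few cells can reach such values by sharing 3 or 4 of them, as Necab2 and Them4 did with 3.

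Other calcium genes were counted from lists written with earlier results of these data known. For the counts of list genes detected in some cell, the share over all genes was 55.9%. The differences of single list genes given below are past 4-fold, as were 8.84% of all genes for culture, 10.3% for reporter at P5, 21.0% for reporter at P8 and 5.48% for age. Of 9 other neuronal calcium sensors 6 were detected in some cell and 4 in at least 3: Kcnip1 in 12 cells, Kcnip3 and Ncs1 in 11 each and Rcvrn in 5. Kcnip1, a potassium channel interacting protein, was lower in cultured than in other P5 pNdrg4 cells (-3.32), opposite in sign to Cabp1, and 3 cells had both Kcnip1 and Cabp1. Vsnl1 shared 5 of its 6 cells with Kcnip1. Recoverin (Rcvrn), a sensor of photoreceptors and some bipolar cells, was higher at P8 than at P5 (3.68 on average), being detected in all 4 P8 cells and P5 pSynapsin E2. Rod genes were high in the P8 pNdrg4 cells too, with a summed signal of 28595 to 38966, against 981 to 5948 in cultured P5 pNdrg4 cells. In pSynapsin cells the summed signal was 4224 to 97418 at P8 and 7509 to 62864 at P5. Their part in the level of Rcvrn was not tested. Ncs1 was higher (2.01) and Hpcal4, detected in 2 cells, lower (-3.34) in pSynapsin than in pNdrg4 cells at P8.

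Of 10 further CaBP, NECAB and calmodulin genes 7 were measured, 4 detected in some cell and 0 in at least 3. Among 16 measured EF-hand buffers and S100 genes 10 were detected, led by Pef1 (10 cells), Pdcd6 (9), Sri (8) and S100a16 (4). Pdcd6, a penta-EF-hand protein, was higher in cultured cells (3.43) and lower in pSynapsin than in pNdrg4 cells at P5 (-4.10) and P8 (-2.77). Pef1 was at 2.72 for reporter at P5 and -2.003 for age, Sri at 2.82 for age, and S100a16 at 3.67 and Efhd2, detected in 2 cells, at 2.18 for reporter at P8.

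Calcium clearance and store genes were detected in more cells. Of 16 measured, 11 were detected in some cell, with calreticulin (Calr) in all 26, the plasma membrane pump Atp2b2 in 16 and the reticulum pump Atp2a2 in 15, then Ryr2 in 9, Mcu in 8, Atp2b1 in 7, Slc8a1 and Slc8a3 in 6 each and Atp2b3 in 4. Atp2b2 (3.82) and Atp2a2 (2.83) were higher in cultured than in other P5 pNdrg4 cells. These were 2 of 9 list genes tested, against 8.84% of all genes. Atp2b3 was higher (3.24) and Slc8a3 (-2.20) and Atp2b1 (-2.04) lower in pSynapsin than in pNdrg4 cells at P8. That was 3 of the same 9, against 21.0% of all genes. Slc8a3 was higher at P8 than at P5 (2.00), where 5.48% of all genes were past 4-fold.

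Voltage-gated channel genes were detected for 12 of 15 measured, among them Cacna1b in 12 cells, Cacna1d in 11, Cacna1h in 9, Cacna2d2 in 8, Cacna1a and Cacna1g in 5 each, and Cacna1c, Cacnb1 and Cacna2d3 in 4 each. Cacna1d, an L-type channel subunit, was higher in cultured cells (2.36) and lower in pSynapsin cells at P8 (-2.63), where Cacna1a was lower too (-3.92). Cacna2d3 was lower in pSynapsin cells at P5 (-2.18). Cabp1 was detected in 8 of the 11 Cacna1d cells, against 13 of all 26 cells. This was not particular to Cacna1d: Cabp1 was in all 4 Cacnb1 cells and 4 of the 5 Cacna1g cells. It was in 7 of the 12 Cacna1b cells and 4 of the 9 Cacna1h cells.

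All 13 measured effector genes were detected in some cell: the calcineurin subunits Ppp3cb in 22 cells, Ppp3r1 in 16 and Ppp3ca in 12, the kinase genes Camk2b in 13, Camk2g and Camkv in 12 each, Camk2d in 10 and Camkk2 in 3, and the calmodulin-binding Pcp4 in 10. Camkv was higher in cultured cells (2.35) and at P8 (2.33). Pcp4 was higher in pSynapsin than in pNdrg4 cells, by 5.17 at P5 and 3.87 at P8, and Camk2g by 2.58 at P8. Over each list's genes detected in at least 2 cells, the median culture difference lay between -0.01 and 0.74, against 1.198 for the 8 members and 0.31 for all genes. The list of CaBP, NECAB and calmodulin genes is left out of that range, since it had 1 such gene, Necab3 (-0.73). Over the settings tried the members' median ran from 0.67 (floor of 500, or group medians) to 1.71 (floor of 50). The list medians are not given for those settings.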

How the data were processed

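Single mouse amacrine cells were profiled on Affymetrix mouse expression arrays, 1 cell per array, after oligo dT reverse transcription and 35 cycles of PCR, per the labels' protocols. The deposited intensity of each probe set is on a linear scale. Per the submitters' processing notes the authors used MAS5, version not given in the sources used here. The mean trimmed by 2% at each end was 500 on all 26 arrays, so they were not scaled again, and no detection calls were used.

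Of 45101 probe sets 34945 had 1 named gene, which gave 18193 genes, each read from the probe set that averaged highest as log2(max(signal, 200)). Detection was a signal of at least 1000. Differences are between group means of that floored log2 signal, and understate gaps against cells at 200. Genes detected in at least 2 cells (8570) formed the background. No labels give animals or cultures, so each group was 1 sample without a test. The 3 best correlated genes were named per member detected in 4 to 22 cells, and list genes from 3 cells upward or past 4-fold. The members, lists and rules were chosen with earlier results of these data known. Other floors, detection signals, probe set rules, scalings, medians and left-out cells were tried. Software was scipy 1.17.1, pandas 2.3.3, numpy 2.4.6 and Python 3.11.15, with figures from matplotlib 3.10.9. The difference script returned shifts added to simulated data without a floor, which checks its arithmetic only.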

Additional observations from a re-analysis of the deposited data

Results flagged for a closer look

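In 10 of 24 groups of a gene's values (groups of 4 to 10 cells) 1 cell was separated from the rest of its group on the log2 scale with signals raised to 200. In 7 of the 10 only that cell was above 200, so the floor fixed the gap, and the rate of about 1 in 20 that chance gives for unfloored values does not apply. Detected cells among them were Hpca in P5 pNdrg4 B4 with no culture stated (6907) and Ncald in cultured P5 pNdrg4 C1 (1628). Among cultured P5 pSynapsin cells, E2 stood apart for Necab1 (266) and Ncald (802), E1 for Necab2 (393) and E4 for Hpca (399). Among P5 pNdrg4 cells with no culture stated, A2 stood apart for Necab2 (399.7), A6 for Ncald (538) and B3 for Pvalb (230), where the next cell read 207. Among cultured P5 pNdrg4 cells, D5 stood apart for Hpcal1 (346). All but the first 2 of these signals are below the detection signal of 1000.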

How the results depend on the processing

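Of 690 differences of single members under other settings, 678 moved by no more than the spread between cells and 12 by more. That spread was wide, and the differences of Calb1 and Pvalb lay at or near 0 in most settings. The count is therefore no measure of firmness. For reporter at P8, Calb2 (-0.71) counted as within the spread at -3.71 without pSynapsin B4 and at 2.28 without pSynapsin B3. In 18 of the 690 the sign was the opposite of the reported one, 17 of them without 1 cell and the other for Calb2 (reporter at P5, group medians). All 18 were of differences under 4-fold. The 60 counts of cells stayed within the exact intervals of the reported shares, but some moved by over 1.5 times: Ncald (3 cells) was detected in 6 at a detection signal of 500, in 1 at 2000 and in 1 with the median probe set, and Hpcal1 (6 cells) in 10 at 500. The 8 detected members and the median of 2 per cell were the same in every setting tried. The number of members past 4-fold was less firm. For culture (1 member) it was 3 with a floor of 50, 2 with group medians and 5 at a log2 difference of at least 1, and 1 to 3 when single cells were left out. For reporter at P5 (2 members) it was 3 with a floor of 50, 0 with a floor of 500, 6 at a log2 difference of at least 1, and 1 to 3 without single cells. For reporter at P8 (1 member) it was 4 with a floor of 50, 2 with the median probe set, 3 at a log2 difference of at least 1, and 3 to 5 without single cells. For age (0 members) it was 1 with a floor of 50, 1 after scaling to the 75th percentile, 3 with group medians, 4 at a log2 difference of at least 1, and 0 to 2 without single cells. The cause of these changes was not tested. No paired analysis was possible because the result comes from no test. Signals under 200 give no order, and the number of arrays limits the precision.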
